A study of Mus musculus with 2 samples.

Results

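The 9 genes described here encode the feedback brakes of RAS and MAP kinase signalling: 6 dual specificity phosphatases, Dusp1, Dusp2, Dusp4, Dusp5, Dusp6 and Dusp10, and 3 membrane-linked inhibitors, Spry1, Spry2 and Spred1. They were chosen by symbol, with earlier results of these data known, and all 9 were found among the 24346 symbols listed for each library. The values come from bulk RNA-seq of GFP+CD4+ T cells sorted from the spleen and from the lung of Foxp3-DTR-GFP (FDG) mice on day 15 after bleomycin (BLM), a drug that injures the lung and leads to fibrosis. In FDG mice GFP is made from the endogenous Foxp3 locus, so that GFP+CD4+ cells are regulatory T cells (Tregs). Both groups carried the same reporter and received 50 μg of BLM into the trachea at an age of 10 to 16 weeks, and every library was made from pooled cells of 3 animals. The background strain and sex of these mice are not given in the sources used here, and no library of untreated mice was analysed. With 1 pooled library per tissue there is no replicate error and no p-value, and every comparison below describes 2 libraries.

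MAP kinases carry signals from the T cell receptor, cytokine receptors and stress to the nucleus through phosphorylation of a threonine and a tyrosine. The MAP kinase phosphatases remove both phosphates. Many of their genes are switched on by the pathways that they silence, and the proteins differ in where they act and in which kinases (ERK, JNK or p38) they prefer. Sprouty and Spred proteins act further upstream and restrain the activation of RAS and RAF, and Spred1 does so by bringing the RAS inhibitor neurofibromin to the membrane. In T cells these genes are known as early activation and feedback genes.

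The stretches upstream of 4 phosphatase genes are shown first because these genes had the highest levels of the 9 in lung and differed between the tissues in both directions. Each runs 5′ to 3′ along the gene's strand from 250 to 51 bases before its RefSeq start (GRCm38.p6). Dusp1 lies at chr17:26508523-26508722 on the minus strand, Dusp2 at chr2:127335909-127336108, Dusp5 at chr19:53528895-53529094 and Dusp10 at chr1:184034131-184034330, these 3 on the plus strand. Capitals mark matches, on either strand, to the cyclic AMP response element (CRE) in its short form (TGACG), the E-box (CACGTG), the CArG box bound by serum response factor, and the CCAAT box.
Dusp1: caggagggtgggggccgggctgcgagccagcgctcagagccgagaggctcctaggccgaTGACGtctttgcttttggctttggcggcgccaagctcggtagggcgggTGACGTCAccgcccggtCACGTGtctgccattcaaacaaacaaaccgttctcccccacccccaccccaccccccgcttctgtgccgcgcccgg
Dusp2: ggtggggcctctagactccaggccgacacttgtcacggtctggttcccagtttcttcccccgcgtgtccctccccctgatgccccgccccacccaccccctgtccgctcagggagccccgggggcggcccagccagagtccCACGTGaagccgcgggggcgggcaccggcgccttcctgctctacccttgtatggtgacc
Dusp5: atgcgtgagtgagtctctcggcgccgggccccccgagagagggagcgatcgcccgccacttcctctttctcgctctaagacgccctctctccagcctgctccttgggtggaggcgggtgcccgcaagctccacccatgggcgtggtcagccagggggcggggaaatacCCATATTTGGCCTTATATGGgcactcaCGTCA
Dusp10: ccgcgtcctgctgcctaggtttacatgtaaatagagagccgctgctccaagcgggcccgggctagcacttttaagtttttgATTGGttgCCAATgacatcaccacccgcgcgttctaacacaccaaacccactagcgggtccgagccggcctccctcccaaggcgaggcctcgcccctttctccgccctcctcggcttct

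The motifs were chosen after the sequences had been seen, and matches are descriptions only. Of the 9 genes, 8 had an entry in the RefSeq promoter table, Dusp4 having none, and the shares below refer to 32851 entries and to the 250 bases before each start. The Dusp1 stretch held 1 full CRE (TGACGTCA), within which 2 short CREs overlap, and 1 further short CRE. A full CRE was found in 1.55% of all entries. The Dusp5 stretch held 2 adjoining CArG boxes, a motif found in 1.47% of entries, and a short CRE, found in 17.8%. An E-box was found in Dusp1 and Dusp2 and in 6.02% of all entries. The CCAAT box was found in Dusp6, Dusp10 and Spry1 and in 33.8% of all entries, and 1 of the 3 boxes of Dusp10 lies nearer to its start than the bases shown. None of the 8 stretches held an AP-1 site (TGANTCA) or the ETS letters CCGGAAG, which 6.75% and 6.91% of entries held. No motif searched was shared by all genes that were higher in lung or by all genes that were lower.

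**Figure D1:**
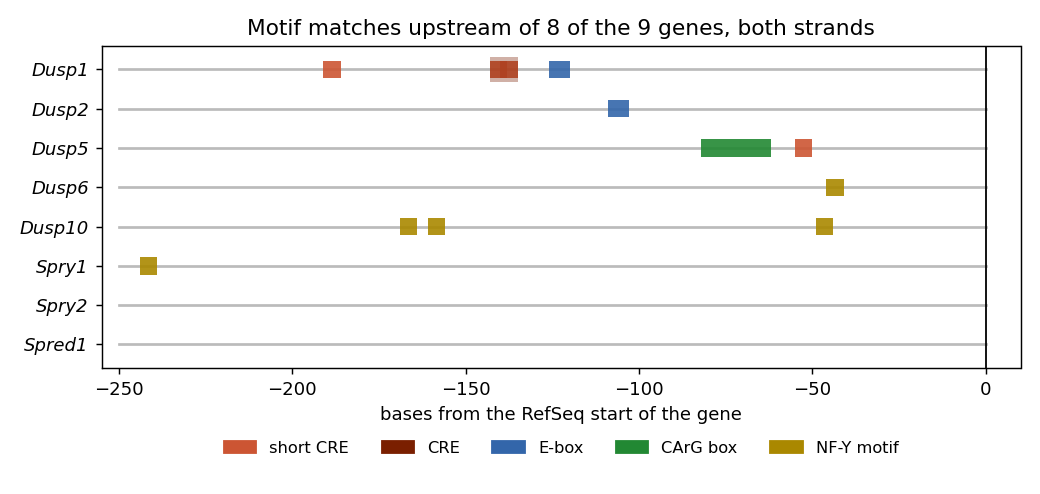
Positions of the matches in the 250 bases before the start of 8 genes, with the start at 0 on the horizontal axis (in bases) and 1 line per gene. Coloured boxes are matches on either strand, and the CCAAT box is drawn as the NF-Y motif. Dusp1 and Dusp5 carry the only short CREs, and Spry2 and Spred1 carry no match.

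Both libraries held T cell and Treg genes, but genes of other cells differed, with sums of 566.1 FPKM in spleen against 27167 FPKM in lung for 10 macrophage genes and of 238.6 against 123.0 FPKM for 5 B cell genes. The values for each cell type are given after those of the 9 genes. In bulk RNA, fewer cells with a transcript and less of it per cell cannot be told apart.

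Both libraries had the same phosphatases at the top of the list, but the order below them changed. In spleen the levels ran from Dusp1 and Dusp2 through Dusp5, Spry1, Dusp6, Dusp10, Dusp4 and Spred1 to Spry2. Spry1 and Dusp6 were the only neighbours in that order whose 95% Poisson intervals of counting overlapped. In lung the order was Dusp1, Dusp2, Dusp5, Dusp10, Dusp4, Dusp6, Spry1, Spry2 and Spred1, and no neighbours overlapped. For Spred1 this rests on 28.2 reads, estimated from the median length of its transcripts. Its shortest transcript would leave 9.88 reads in lung and a wider interval, whose overlap with that of Spry2 was not tested. Levels are in FPKM, a fragment count scaled to the length of the transcript and to the size of the library, so that genes can be compared per length. Intervals were drawn from reads estimated from FPKM and transcript length, and they cover counting error only, not the variation between mice or the PCR amplification of the cDNA.

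**Figure D2:**
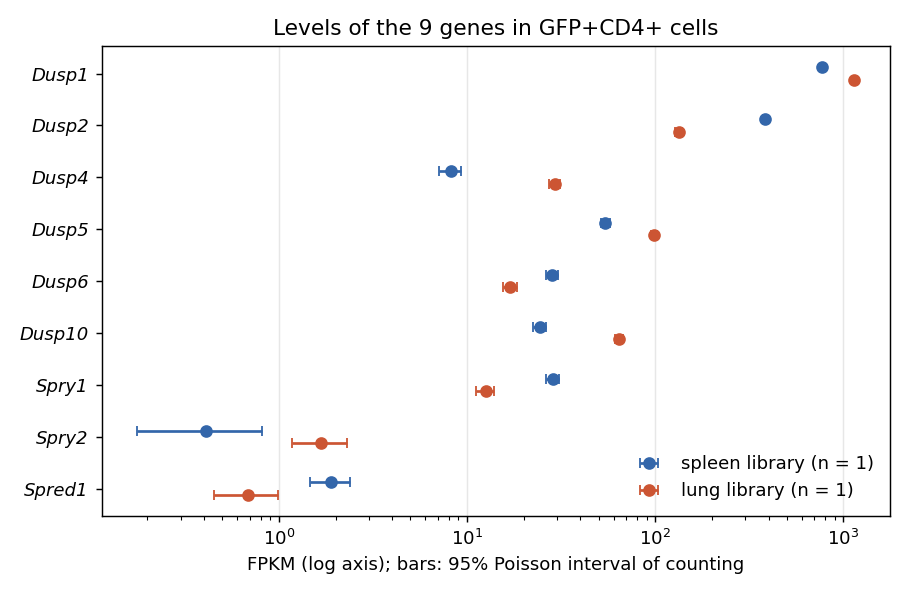
FPKM (horizontal log axis) of the 9 genes in the splenic (blue) and the lung (red) library, 1 library per tissue, with bars for the 95% Poisson interval of the estimated reads. Dusp1 has the highest level in both libraries (773.9 and 1132 FPKM), and Dusp2 has the widest gap of the 3 genes with the highest levels.

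Lung FPKM were divided by splenic FPKM after a floor of 0.1 FPKM, and genes at least 2-fold apart were called. Dusp4, Dusp10 and Spry2 were at least 2-fold higher in the lung library, and Dusp2, Spry1 and Spred1 were at least 2-fold lower. Dusp1, Dusp5 and Dusp6 differed by less than 2-fold. The 3 of 9 genes (33.3%) called higher stand beside 17.8% of the 12094 symbols that reached 1 FPKM in either library, and the 3 of 9 called lower stand beside 15.5%. Spry2 (0.411 FPKM in spleen and 1.67 in lung) reached 1 FPKM only in lung. Spred1 (1.89 FPKM in spleen and 0.681 in lung) reached it only in spleen, so both passed through the library where they were higher. Weakly expressed genes scatter more, so the 7 genes that reached 10 FPKM in either library were also set beside the 7279 symbols at that level. Of these 7 genes 2 (28.6%) were called higher and 2 lower, against 11.6% and 9.15% of the symbols. Dusp4, 1 of the 2 called higher, reached 10 FPKM only in lung (8.17 FPKM in spleen and 29.3 in lung). The median log2 ratio of the 9 genes was 0.55 and that of the 12094 symbols was 0.03. None of the 9 genes was more than 20-fold higher in lung, as 3.27% of the symbols were. Rescaling to TPM, transcript shares with the same total in both libraries, lowered all log2 ratios by 0.43. Under it 2 of the 9 genes were called higher and 4 lower, against 13.1% and 25.9% of the symbols.

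**Figure D3:**
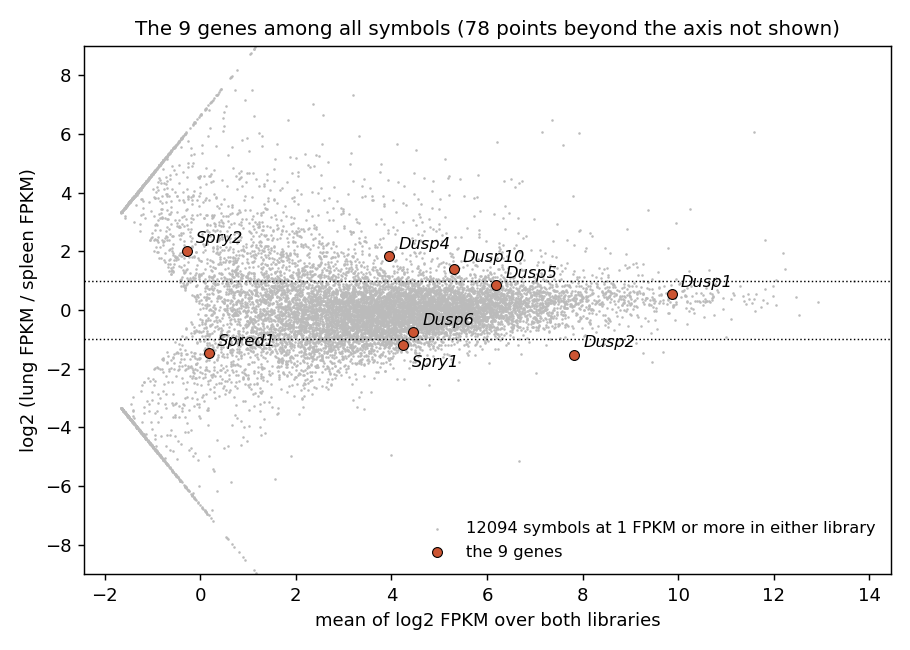
The log2 ratio of lung to spleen FPKM (vertical axis) against the mean log2 FPKM of both libraries (horizontal axis) for 12094 symbols (grey) and the 9 genes (red), with dotted lines at 2-fold and 78 symbols beyond the axis not drawn. Dusp2 at -1.52, Dusp4 at 1.84 and Dusp10 at 1.40 lie beyond the lines of 2-fold, as do Spry1, Spry2 and Spred1.

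Among the phosphatases of the nucleus, Dusp1 and Dusp2 made up most of the signal in both tissues. Dusp1, an immediate early gene whose product acts mainly on p38 and JNK, has 4 exons at chr17:26505590-26508519 on the minus strand. It was at 773.9 FPKM in the splenic library and 1132 FPKM in the lung library, ranks 114 and 110 of all symbols. About 14295 and 23742 reads stand behind these values, and the ratio was 1.46 (95% counting interval 1.43 to 1.49). Dusp1 was thus higher in lung by less than 2-fold, and the difference shrank to 1.08-fold after rescaling to TPM. Dusp2, a phosphatase of activated lymphocytes, has 4 exons at chr2:127336159-127338376 on the plus strand. It was at 382.5 FPKM in spleen and 133.4 FPKM in lung, from about 5586 and 2212 reads. Its level was 2.87-fold lower in lung (2.73 to 3.01), and 3.64% of the symbols at 10 FPKM or more had a lower ratio. Among all symbols Dusp2 ranked 248 in spleen and 917 in lung.

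Dusp4 and Dusp5, the other nuclear phosphatases, were both higher in lung. Dusp4, whose product acts on ERK and JNK and is a known feedback target of ERK, has 4 exons at chr8:34807297-34819894 on the plus strand. It was at 8.17 FPKM in spleen and 29.3 FPKM in lung, about 215 and 872 reads, a ratio of 3.58 (3.07 to 4.17). Of the symbols at 10 FPKM or more, 94.3% had a lower ratio. Dusp5, whose product binds ERK and holds it in the nucleus, has 4 exons at chr19:53529109-53542431 on the plus strand. It was at 54.2 FPKM in spleen and 98.6 FPKM in lung, about 1272 and 2629 reads. The ratio of 1.82 (1.7 to 1.95) stayed under 2-fold, and the counting intervals of both libraries did not overlap.

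The 2 remaining phosphatases differed in opposite directions. Dusp6, the cytoplasmic phosphatase specific for ERK, has 3 exons at chr10:99263231-99267488 on the plus strand. It was at 28.4 FPKM in spleen and 17.0 FPKM in lung, from about 763 and 517 reads, and was 1.68-fold lower in lung (1.5 to 1.88). After rescaling to TPM it was 2.26-fold lower, which is past the 2-fold call. Dusp10, whose product prefers JNK and p38 and is found in both cytoplasm and nucleus, has 4 exons at chr1:184034381-184075636 on the plus strand. It was at 24.3 FPKM in spleen and 64.1 FPKM in lung, from about 651 and 1950 reads. Dusp10 was 2.64-fold higher in lung (2.41 to 2.89), and 1.96-fold after rescaling to TPM, just under the call.

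Of the inhibitors that act on RAS and RAF, only Spry1 reached 10 FPKM. Spry1, a Sprouty that restrains receptor signalling to ERK, has 3 exons at chr3:37639958-37644598 on the plus strand. It was at 28.6 FPKM in spleen and 12.5 FPKM in lung, about 669 and 333 reads, and was 2.28-fold lower in lung (2 to 2.61). Spry2, its paralog, has 2 exons at chr14:105891947-105896819 on the minus strand. It was at 0.411 FPKM in spleen and 1.67 FPKM in lung. Only about 8 and 37 reads lie behind these values, and the interval of the 4.07-fold ratio ran from 1.87 to 10.1. The call for Spry2 was lost with a floor of 1 FPKM, under which the ratio was 1.67. It was also lost with a pseudocount of 1 FPKM, at a log2 ratio of 0.92.

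Spred1, the membrane partner of neurofibromin, has 7 exons at chr2:117121374-117182279 on the plus strand. Its level of 0.681 FPKM in lung was 2.78-fold lower (1.78 to 4.51) than the 1.89 FPKM in spleen. Its RefSeq transcripts differ in length, so that between 24.2 and 114 reads may lie behind the splenic value and between 9.88 and 46.6 behind the lung value. With a pseudocount of 1 FPKM the difference was 1.72-fold, under the call. With a floor of 1 FPKM the log2 ratio was -0.92, also short of the call. The summed level of Spry1, Spry2 and Spred1 was 30.9 FPKM (spleen) and 14.9 FPKM (lung), and Spry1 made up most of it in both.

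**Figure D4:**
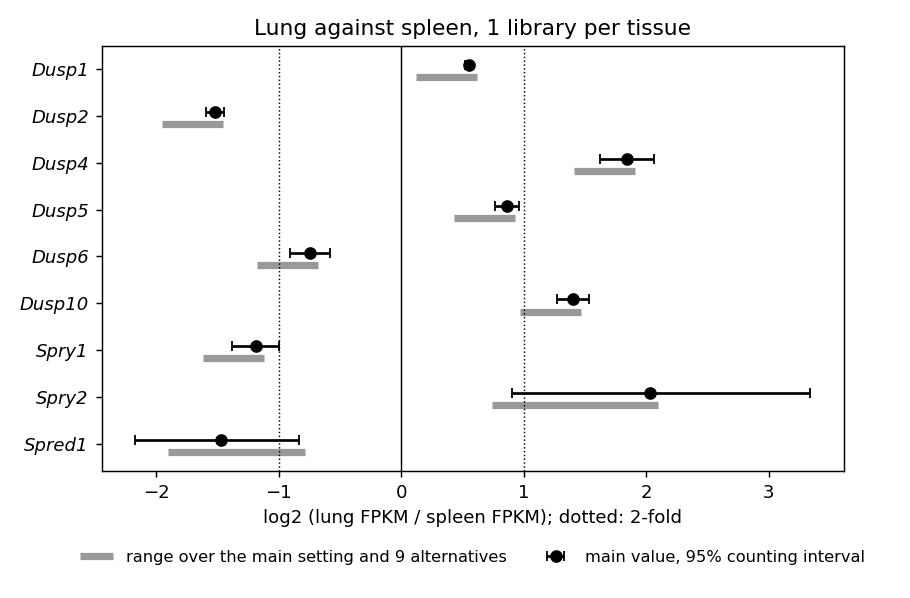
The log2 ratio of lung to spleen FPKM for the 9 genes (black points, 1 library per tissue) with the 95% interval of counting (thin bars) and the range over the main setting and 9 alternative settings (grey bars), with dotted lines at 2-fold. Each gene keeps its side of 0 in all settings drawn, none of which could reverse a ratio as far from 0 as these 9. Spry2 and Spred1 have the widest intervals.

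Ratios of genes within a library do not depend on how the libraries were scaled to each other. The pairs were chosen after the values had been seen. Dusp1 was 2.02 times Dusp2 in spleen and 8.49 times Dusp2 in lung. Of the summed FPKM of the 6 phosphatases, 1271 in spleen and 1474 in lung, Dusp1 took 60.9% and 76.8% and Dusp2 took 30.1% and 9.05%. Dusp4 stood at 0.287 of Dusp6 in spleen and at 1.72 times Dusp6 in lung. The other nuclear phosphatases, Dusp1, Dusp2 and Dusp5, were above Dusp6 in both libraries. Dusp10 stood at 0.855 of Dusp6 in spleen and at 3.78 times Dusp6 in lung. Spry1 exceeded Spry2 by 69.5 times in spleen and by 7.49 times in lung.

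Kinases, RAS proteins and regulators of RAS from the same cascade were described in the same way. Of 35 genes of the RAS and MAP kinase cascade, 33 reached 1 FPKM in either library. Among them 3 were called higher in lung, 3 lower and 27 neither, with a median log2 ratio of -0.20, beside 17.8% of all symbols called higher and 15.5% lower. After rescaling to TPM, 1 of the 33 (Rras) was called higher and 8 lower, beside 13.1% and 25.9% of all symbols. Mapk3 and Nf1 lost their calls under it. Mapk3, an ERK gene, was called higher (10.5 and 22.9 FPKM), as was Rras, a RAS-related GTPase (20.1 and 61.0 FPKM). Nf1, which encodes neurofibromin, the partner of Spred1, was also called higher (0.398 and 1.07 FPKM). The genes called lower were Mapk12, a p38 gene (5.68 and 1.67 FPKM), Map2k7, a kinase that activates JNK (16.2 and 7.17 FPKM), and Sos1, an exchange factor of RAS (3.07 and 1.36 FPKM). Map2k3, which activates p38, had the highest level of the MAP kinase kinases (49.9 and 89.0 FPKM). Among the RAS and RAF genes Araf was highest in spleen (80.3 and 64.2 FPKM), and the adaptor Grb2 was highest in lung (52.8 and 74.1 FPKM). Of the RAS GTPase activating proteins, Rasal3 had the highest level, at 178.1 FPKM in spleen and 126.3 FPKM in lung.

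No other MAP kinase phosphatase, Sprouty or Spred gene exceeded 10.3 FPKM. Dusp7, a relative of Dusp6, was at 10.3 FPKM (spleen) and 7.04 FPKM (lung), and Dusp16, a JNK phosphatase, was called higher in lung (0.636 and 1.92 FPKM). Dusp8 was listed at 0 in spleen and at 2.51 FPKM in lung, and Dusp9 was listed at 0 in both. Of the remaining Sprouty and Spred genes, only Spred2 reached 1 FPKM, and like Spred1 it was called lower in lung (1.70 and 0.542 FPKM). Spry3 was listed at 0 in both libraries and Spry4 was under the floor in both.

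Genes known to be switched on by ERK differed in both directions. Of 7 such genes outside the 9, 5 reached 1 FPKM, with 2 called higher, 1 called lower and a median log2 ratio of 0.55. Of all symbols at that level, 17.8% were called higher and 15.5% lower. Ier3, an early response gene, was at 2.41 FPKM (spleen) and 45.1 FPKM (lung), and Epha2, an ephrin receptor, was listed at 0 in spleen and at 2.01 FPKM in lung. Epha2 thus reached 1 FPKM only in lung, and the size of its ratio depends on the floor. Etv5, an ETS factor of the ERK pathway, was called lower (4.94 and 1.97 FPKM), and Phlda1, the most abundant in spleen, was at 10.01 and 7.98 FPKM.

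**Figure D5:**
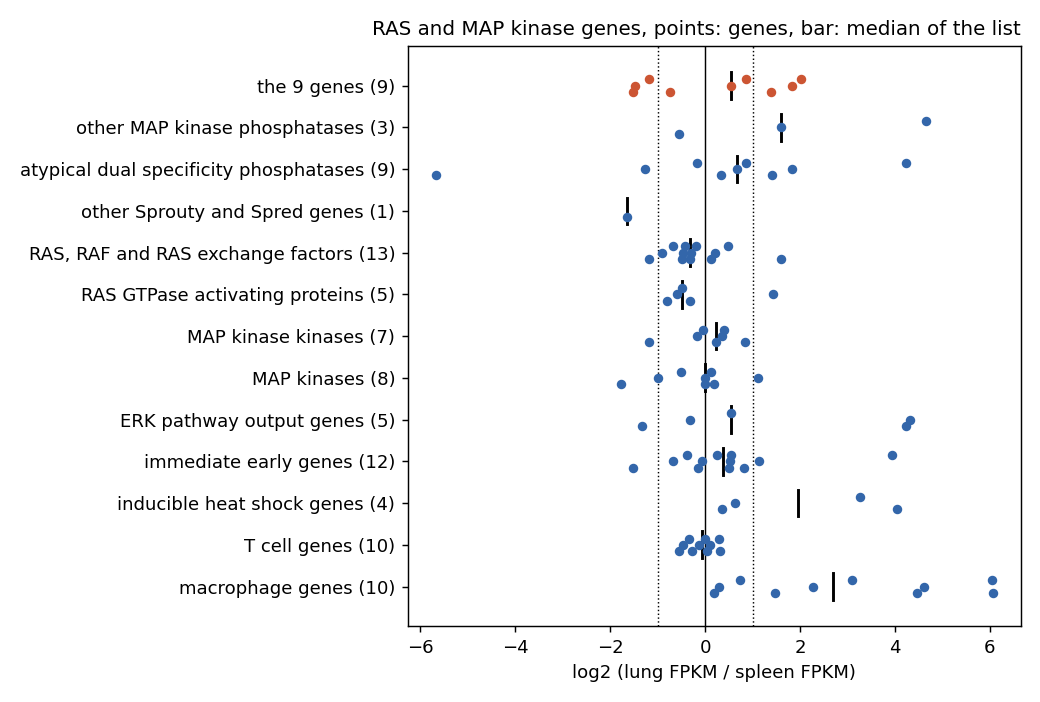
The log2 ratio of lung to spleen FPKM (horizontal axis) of the 9 genes (red) and of 12 other lists (blue), with 1 point per gene at 1 FPKM or more in either library, a black bar for the median and dotted lines at 2-fold. Values under 0.1 FPKM were set to 0.1, so points of genes listed at 0 in 1 library depend on that floor. The medians of the 4 cascade lists run from -0.50 for the RAS GTPase activating proteins to 0.23 for the MAP kinase kinases, and the 9 genes lie on both sides of 0.

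Values that bear on the handling and purity of the sorted cells stand beside these results. Dusp1 belongs to the immediate early genes, and of 12 others 2 were called higher in lung, 1 lower and 9 neither. Beside these counts, 17.8% of all symbols were called higher and 15.5% lower. Junb (670.7 and 958.5 FPKM), the most abundant, was 1.43-fold higher, beside 1.46-fold for Dusp1. Atf3 (5.67 and 87.7 FPKM) and Nr4a1 (96.2 and 213.1 FPKM) were called higher, and Egr1 (82.5 and 28.8 FPKM) was 2.86-fold lower. After rescaling to TPM the call of Nr4a1 was lost and Jun was called lower. Of 4 inducible heat shock genes 2 were called higher, Hspa1a (7.11 and 117.3 FPKM) and Hspa1b (22.9 and 220.5 FPKM), and Dnajb1, the highest in spleen, was at 81.2 and 126.2 FPKM. The lung was digested with enzymes at body temperature, whereas the preparation of spleen cells is not described in the sources used here. Tissue and handling cannot be told apart in this design.

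T cell genes were at like levels in both libraries, whereas genes of other cells differed. The 10 T cell genes summed to 4741 (spleen) and 4573 FPKM (lung), with none called. For this and the lists below, the shares over all symbols were 17.8% called higher and 15.5% lower. Of 5 Treg genes 2 were called higher, Foxp3 (18.7 and 41.8 FPKM) and Ctla4 (220.9 and 601.0 FPKM), of which Foxp3 lost its call after rescaling to TPM. Of 10 macrophage genes 7 were called higher in lung and none was at 0 in either library, and their sum was 566.1 FPKM in spleen and 27167 FPKM in lung, of which Lyz2 alone was 24947 FPKM. Of 5 neutrophil genes listed 4 were called higher (sums of 409.7 and 1181 FPKM). The 6 fibroblast genes summed to 0.290 and 47.2 FPKM, with Col3a1, Pdgfra and Lum at 0 in spleen and 4 called higher. The 6 lung epithelial genes summed to 12.5 and 3126 FPKM, with Sftpc and Sftpb at 0 in spleen, 4 called higher and Epcam called lower. The 5 endothelial genes summed to 55.4 and 40.6 FPKM, of which Pecam1 alone was 54.8 and 31.7 FPKM. Cdh5 was at 0 in spleen and Kdr at 0 in lung. The 2 called higher were Cldn5 (0.160 and 6.54 FPKM) and Vwf (0.425 and 2.03 FPKM). The 5 B cell genes summed to 238.6 and 123.0 FPKM, with 2 called lower. The 9 genes are expressed in many of these cells too, and the part of such RNA in their values was not tested.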

How the data were processed

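Bulk RNA-seq of splenic and lung Tregs was analysed, with 1 library per tissue. Per the labels and the methods, the authors mapped single-end reads to mm10 with TopHat2 2.1.1, Bowtie2 2.2.8 and SAMtools 0.1.18 and calculated the deposited FPKM with Cuffdiff 2.2.1; the annotation and options are not given in the sources used here. The libraries were assigned by their tissue labels. Members and gene lists were chosen with earlier results of these data known.

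Ratios of lung to spleen were computed after a floor of 0.1 FPKM, and 2-fold was called. Genes were named by rule: the 9 members, and in other lists the genes called and those with the highest level, of which 1 is not reported here. Reads were estimated for 23016 symbols (94.5%) from GENCODE M21 (GRCm38) transcripts tied to RefSeq, with a fragment mean of 200, an SD of 80 and a minimum of 73. At an effective length of 1 kb, 1 read was worth 0.0964 (spleen) and 0.0849 (lung) FPKM, and reads summed to 9648676 and 12634380. Intervals of 95% are exact (Clopper-Pearson for ratios, Poisson for levels) and cover counting error only. No exon of the 9 genes overlapped another listed gene, but antisense genes that are not listed overlap Dusp5 and Spry1, and reads without strand cannot tell them apart. No test was run. The steps were tested on simulated data. Floors, pseudocounts, scalings, filters, 3 reads as the least and other folds were tried. Scripts ran under Python 3.11.15 with scipy 1.17.1, numpy 2.4.6, matplotlib 3.10.9 and pandas 2.3.3.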

Additional observations from a re-analysis of the deposited data

How the results depend on the processing

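No paired analysis was possible because each tissue had 1 library, and no library could be left out. Under the 9 alternatives of floor, pseudocount, scaling and least reads, the 81 values of single genes all kept their direction. This outcome was fixed in advance, since a floor or pseudocount cannot reverse a ratio. The largest shift by scaling (-0.43 with TPM) was smaller in size than the main log2 ratio nearest to 0 (0.55 for Dusp1). Of the 81 values, 66 stayed inside the counting interval of the main value and 15 did not, 7 of them after rescaling to TPM. A floor of 0.01 FPKM and 3 reads as the least left every value unchanged, so those values could not fall outside. The median log2 ratio of the 9 genes was 0.12 after rescaling to TPM, 0.37 with equal upper quartiles and 0.615 when scaled to the T cell genes, since such a step shifts all genes alike. With 4-fold in place of 2-fold, 1 gene (Spry2) was called higher and 0 lower, beside 10% and 7% of all symbols, and with 1.5-fold 4 were called in each direction, beside 27.4% and 25.4%. Rescaling of the 33 cascade genes, added after the values had been seen, gave 1 higher and 8 lower with TPM, and 2 higher and 5 lower with equal upper quartiles. Of all symbols, 13.1% were called higher and 25.9% lower with TPM, and 15.3% and 18.9% with equal upper quartiles. Depth limits the values of Spry2 and Spred1.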

Other observations

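Atypical dual specificity phosphatases, small relatives that mostly lack the kinase-binding domain of the MAP kinase phosphatases, were also listed. Of 15 such genes 9 reached 1 FPKM in either library, with 3 called higher in lung, 2 lower and a median log2 ratio of 0.67. The shares over all symbols were 17.8% called higher and 15.5% lower. Dusp3 was at 0.338 FPKM in spleen and 6.40 FPKM in lung (about 14.0 and 302 reads). Dusp14, which dampens T cell receptor signalling, was at 3.75 and 13.3 FPKM, and Dusp22, another negative regulator of that pathway, at 7.42 and 19.7 FPKM, a call that was lost after rescaling to TPM. Dusp23 was at 5.11 FPKM in spleen and listed at 0 in lung, and Styx, a catalytically inactive relative, was lower in lung (3.05 and 1.26 FPKM). Dusp11, an RNA phosphatase, had the highest level of the list in spleen (25.7 FPKM, against 22.9 in lung), and Dusp12 had the highest in lung (16.9 FPKM in spleen and 26.9 in lung).

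The genes nearest to Dusp2 in the levels of both libraries, by Euclidean distance in log2 FPKM over 2 libraries, were Tcf7 (273.1 and 143.3 FPKM, distance 0.497) and Klf2 (295.7 and 169.6 FPKM, distance 0.507), both transcription factor genes of resting T cells. Nearest to Spry2 were Igsf9b (0.401 and 1.76 FPKM, distance 0.0845) and Edaradd (0.391 and 1.73 FPKM, distance 0.0871). With 2 libraries such nearness describes levels only.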
